A study of Mus musculus with 22 samples.

Results

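The receptors and ligands of the BAFF and APRIL system, together with CD40, were followed at the RNA level in a murine leukemia. The members were the 5 genes Tnfrsf13b (the receptor TACI), Tnfrsf13c (the BAFF receptor), Cd40, Tnfsf13 (the ligand APRIL) and Tnfsf13b (the ligand BAFF), of 17023 genes measured, and the transcripts that GENCODE assigns to each gene were summed. TCL1-355 TKO is a single line derived from the Eμ-TCL1 mouse, in which a TCL1 transgene is driven in B cells by an immunoglobulin enhancer, and it carries lesions in tumor suppressor genes, CDKN2A and CDKN2B among them, in all groups. NFKBIE-ko cells had received Cas9 with a cr-RNA against exon 2 of Nfkbie, and NFKBIE-wt cells had been mock-edited. Both genotypes were propagated separately for 21 days in mice, injected i.p. into C57BL/6 mice and recovered on day 10 from the spleen (4 samples per genotype) and the peritoneal cavity (PC; 4 per genotype), and cells isolated from the spleens of 3 mice per genotype were cultured (in vitro; 3 per genotype). The spleen and PC cells were not purified, so that non-leukemic cells were present. Levels given for NFKBIE-wt or NFKBIE-ko cells of these compartments are those of the whole samples. The paper used 5 recipient mice per genotype, so that some mice must have given both a spleen and a PC sample. Which samples share a mouse is not known, and the tests between compartments treated all samples as independent. Because the genotypes were propagated apart, an effect of this step and an effect of genotype cannot be told apart.

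BAFF and APRIL are members of the TNF family that are made mainly by myeloid, dendritic and stromal cells and that keep B cells alive. The BAFF receptor binds BAFF alone and passes its signal through TRAF proteins and the kinase NIK to the alternative NF-κB pathway, whereas TACI binds both ligands and can also restrain B-cell expansion. CD40 receives CD40L from T cells, signals through the same adaptors, and is itself a known NF-κB target in B cells. Nfkbie encodes IκBε, an inhibitor that holds NF-κB dimers in the cytoplasm.

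The position of the edit is shown because it defines the genotypes. The site of the cr-RNA lies on the plus strand in exon 2 of Nfkbie-201 (exon 45869421 to 45869523 of chromosome 17, GRCm39), and the 3 bases of the PAM are in capitals.
Nfkbie site, chr17:45869436-45869458: agtgattcacgaagccccgtCGG

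The promoters of Tnfrsf13b and Tnfrsf13c are shown because Tnfrsf13b differed between genotypes in the spleen and Tnfrsf13c in the PC. They run from 250 bases before to 50 bases after the start of transcription in the RefSeq table of GRCm38.p6 and were matched without a mismatch to GRCm39, in which the coordinates are given. Capitals are not used here because no motif that was searched was found.
Tnfrsf13b promoter, chr11:61017331-61017630, plus strand: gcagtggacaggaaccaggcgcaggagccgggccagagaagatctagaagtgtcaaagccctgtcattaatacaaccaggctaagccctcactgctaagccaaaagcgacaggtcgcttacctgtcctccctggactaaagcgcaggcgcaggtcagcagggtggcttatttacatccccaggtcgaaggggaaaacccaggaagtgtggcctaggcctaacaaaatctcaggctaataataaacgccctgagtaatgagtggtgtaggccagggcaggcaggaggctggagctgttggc
Tnfrsf13c promoter, chr15:82108532-82108831, minus strand: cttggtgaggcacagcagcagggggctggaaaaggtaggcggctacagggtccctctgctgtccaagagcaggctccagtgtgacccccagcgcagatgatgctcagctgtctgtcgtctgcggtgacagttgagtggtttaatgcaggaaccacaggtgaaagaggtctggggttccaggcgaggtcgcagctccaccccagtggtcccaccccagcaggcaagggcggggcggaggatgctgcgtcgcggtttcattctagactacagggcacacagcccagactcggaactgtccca

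The promoters of 4 members were in the table (Tnfrsf13b, Tnfrsf13c, Tnfsf13 and Tnfsf13b). On both strands they held 0 matches to the NF-κB consensus, to the octamer ATGCAAAT, to the PU.1 core GAGGAA and to TATAAA. Among all 32851 promoters of the same length, 8.46% held the NF-κB consensus, 1.74% the octamer, 28.3% the PU.1 core and 13.6% TATAAA. The window of Tnfsf13 was set by a RefSeq start that lies 230 bases downstream of the GENCODE start. Most of this window therefore lies in the first exon of Tnfsf13-201 and not before the gene. The letters searched were not in these windows, which says nothing of more distant sites.

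Each library held 24036763 to 26581304 estimated counts, and levels are given as CPM, counts scaled to a common library size by TMM. The B-cell markers (Cd79a, Cd79b, Pax5, Ebf1, Blnk, Cd5, Ms4a1 and Ighm) were all above 0 in every group. Of the 22 libraries, 18 were nearest to the other libraries of their own group over 13537 genes. NFKBIE-wt spleen replicate 4 was nearer to the NFKBIE-ko cultures (root mean square difference 0.710 on the log2 scale) than to its own group (1.28), and NFKBIE-wt in vitro replicate 3 was nearer to the NFKBIE-wt spleen (0.853) than to its own group (1.36). NFKBIE-wt in vitro replicates 1 and 2 were nearest to the NFKBIE-ko cultures. The summed erythroid markers were at 1.35 CPM in NFKBIE-wt spleen replicate 4, the lowest of its group, and at 1067 CPM in NFKBIE-wt in vitro replicate 3, against at most 5.75 CPM in the other 2 NFKBIE-wt cultures. The summed granulocyte markers were at 0.0774 CPM in NFKBIE-wt spleen replicate 4, against 62.9 to 410 CPM in the rest of its group. In NFKBIE-wt in vitro replicate 3 they were at 208 CPM, against at most 3.26 CPM in the other NFKBIE-wt cultures. Whether these 2 samples were exchanged was not tested. Both libraries were kept under their labels in all main tests, and values without them are given where they moved a member's result.

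Nfkbie RNA, the target of the edit, was measured at 72.7, 70.9, 76.9 and 124 CPM in the NFKBIE-wt spleen and at 120, 54.2, 109 and 112 CPM in the NFKBIE-ko spleen. Its mean was 79.1 ± 9.96 CPM in the NFKBIE-wt PC and 53.9 ± 8.38 CPM in the NFKBIE-ko PC (SD, n = 4 each), and the 2 groups did not overlap. In culture it was at 117, 141 and 54.3 CPM in NFKBIE-wt and at 56.0, 59.9 and 48.2 CPM in NFKBIE-ko cells. Its level was lower in NFKBIE-ko cells in the PC (log2 fold change -0.56, edgeR adjusted p = 0.00377), and the test was not passed in the spleen (0.19, adjusted p = 0.730) or in vitro (-0.93, adjusted p = 0.517). The libraries that stood apart differed from their own groups in this gene too, being the highest of the NFKBIE-wt spleen and the lowest of the NFKBIE-wt cultures. An edit that shifts the reading frame need not lower the amount of RNA, and the edited sequence itself was not analysed here.

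**Figure D1:**
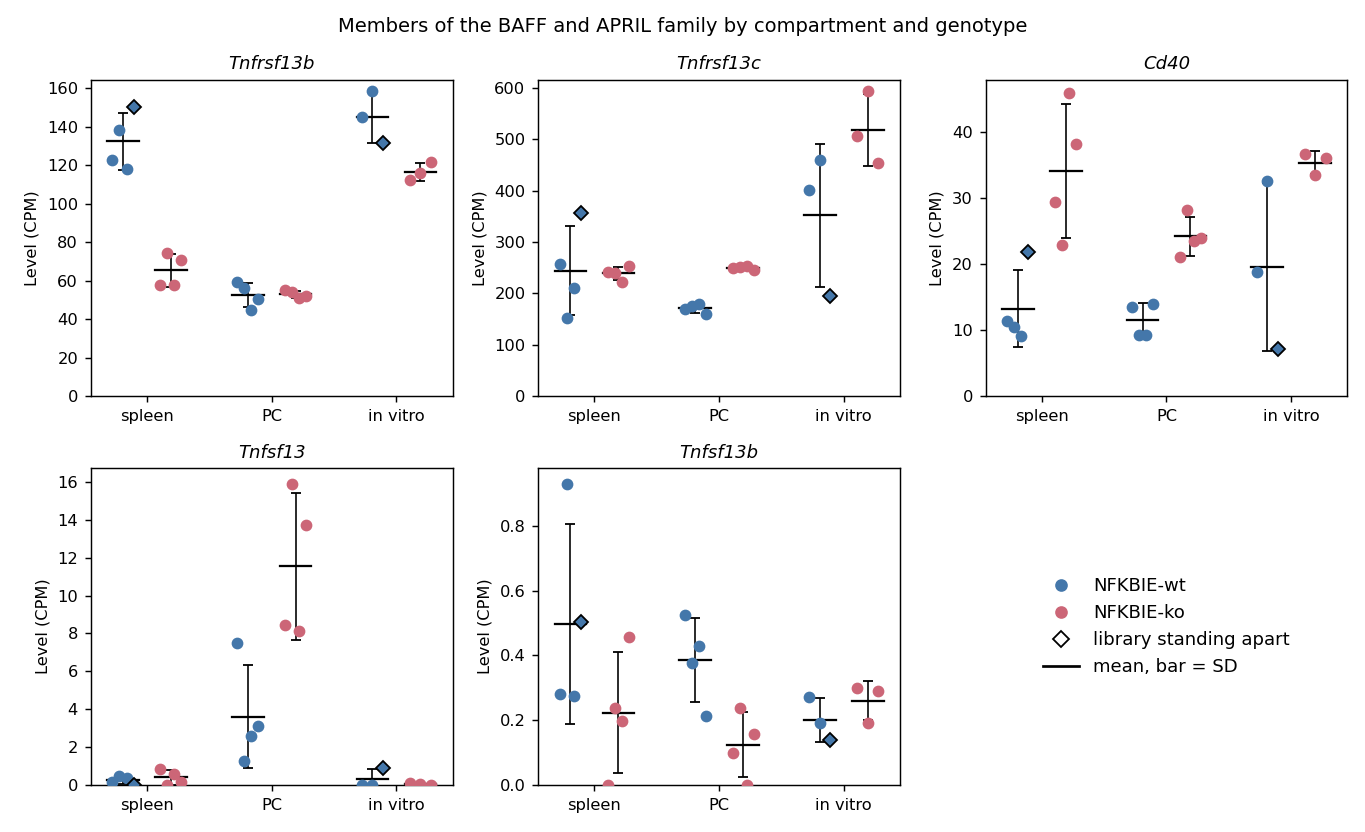
Level of each of the 5 members in CPM (y axis, linear, 1 panel per gene) in the 22 libraries, grouped by compartment and genotype. Points are libraries, bars are group means, error bars are the SD (lower bars stop at 0), and diamonds mark NFKBIE-wt spleen replicate 4 and NFKBIE-wt in vitro replicate 3. Tnfrsf13b of the NFKBIE-ko spleen (mean 65.3 CPM) lies below that of the NFKBIE-wt spleen (mean 132 CPM), and Tnfsf13 exceeds 1 CPM in the PC only.

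The receptors were abundant and the ligands were scarce. Summed over the 22 libraries, Tnfrsf13c held 158556 counts, Tnfrsf13b 50777 and Cd40 12624, compared with 1609 for Tnfsf13 and 160 for Tnfsf13b. Per kilobase of transcript, the mean level of Tnfrsf13c (90.3 to 276 CPM per kb over the 6 groups) was above that of Tnfrsf13b (24.02 to 69.7 CPM per kb) in every group, and that of Tnfrsf13b was above that of Cd40 (6.44 to 20.4 CPM per kb). Tnfrsf17, the receptor BCMA of plasma cells, held at most 16 counts in any library.

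Tnfrsf13b was lower in NFKBIE-ko than in NFKBIE-wt cells of the spleen and did not differ detectably between genotypes in the PC. TACI, its product, is the receptor shared by BAFF and APRIL. In the spleen, the NFKBIE-wt samples were at 122, 138, 118 and 150.4 CPM (132 ± 14.8, SD, n = 4) and the NFKBIE-ko samples at 58.0, 74.6, 57.9 and 70.8 CPM (65.3 ± 8.63, SD, n = 4). All 4 NFKBIE-ko samples lay below all NFKBIE-wt samples, and the mean was 0.494 of that in NFKBIE-wt. The log2 fold change was -1.02 (SE 0.13, 95% interval -1.32 to -0.73, edgeR adjusted p = 0.00451). Without NFKBIE-wt spleen replicate 4, the NFKBIE-wt mean was 126 ± 10.6 CPM (SD, n = 3) and the log2 fold change was -0.95 (edgeR adjusted p = 0.00265), which no longer passed the fold threshold of 1 but passed the test. The fold was also inside the threshold without NFKBIE-wt replicate 2 (-0.99) or NFKBIE-ko replicate 1 (-0.97) or 3 (-0.96), so that with 4 of the 8 libraries left out in turn the gene was not called, while the adjusted p was at most 0.0270 throughout (edgeR).

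In the PC the level of Tnfrsf13b was low in both genotypes, at 59.1, 56.1, 44.6 and 50.3 CPM in NFKBIE-wt and at 55.0, 53.9, 50.8 and 52.0 CPM in NFKBIE-ko cells. The groups overlapped, and the 95% interval of the log2 fold change ran from -0.20 to 0.20 (edgeR adjusted p = 0.998). In culture the NFKBIE-wt samples were at 145, 159 and 131 CPM and the NFKBIE-ko samples at 112, 116 and 122 CPM. All 3 NFKBIE-ko cultures lay below the NFKBIE-wt cultures, but the difference (log2 fold change -0.32, SE 0.095, 95% interval -0.55 to -0.09) did not pass after adjustment over all genes (edgeR adjusted p = 0.506). Without NFKBIE-wt in vitro replicate 3 it was -0.38 (edgeR adjusted p = 0.230).

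The effect of genotype on Tnfrsf13b was tested between compartments in a fit of all 22 samples. It was larger in the spleen than in the PC, with a difference of the log2 fold changes of -1.03 (SE 0.15, 95% interval -1.34 to -0.72, edgeR adjusted p = 0.00103), and Tnfrsf13b was the only 1 of the 5 members called for this difference. A gene was called with an adjusted p below 0.05 and a log2 value beyond 1 in either direction, which for this difference held for 1.9% of all genes tested (257 of 13537). With each of the 16 libraries left out in turn the difference ranged from -1.12 to -0.96 and the adjusted p stayed below 0.05, while the size was -0.96, inside the threshold of 1, without NFKBIE-wt spleen replicate 4 or without NFKBIE-wt PC replicate 3. Between spleen and culture the difference was -0.70 (SE 0.16, edgeR adjusted p = 0.0520; DESeq2 adjusted p = 0.00234), and without both libraries that stood apart it was -0.56 (edgeR adjusted p = 0.108). Between PC and culture it was 0.33 (edgeR adjusted p = 0.257).

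Tnfrsf13c, which encodes the BAFF receptor, was higher in NFKBIE-ko cells in the PC. The NFKBIE-wt PC samples were at 170.1, 176, 179 and 159 CPM and the NFKBIE-ko PC samples at 249, 251, 253 and 246 CPM, so that the groups did not overlap and the mean was 1.46 times higher. The log2 fold change was 0.53 (SE 0.058, 95% interval 0.41 to 0.66, edgeR adjusted p = 5.17e-05), which passed the test but not the fold threshold, and with the spread of all 22 samples in the fit it was 0.55 with an adjusted p of 0.0761 (edgeR). In the spleen the NFKBIE-wt samples spread widely (258, 152, 210.3 and 357 CPM) around the NFKBIE-ko samples (242, 241, 222 and 253 CPM), with a log2 fold change of -0.04 (95% interval -0.55 to 0.48, edgeR adjusted p = 0.946). The highest value was that of replicate 4, and without it the NFKBIE-wt mean was 207 ± 53.1 CPM (SD, n = 3) and the log2 fold change 0.21 (edgeR adjusted p = 0.459).

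In culture Tnfrsf13c was at 402, 459 and 195 CPM in NFKBIE-wt and at 507, 594 and 455 CPM in NFKBIE-ko cells. The lowest NFKBIE-wt value was that of replicate 3, and the groups overlapped, as 1 NFKBIE-wt culture exceeded the lowest NFKBIE-ko culture. The log2 fold change was 0.56 (95% interval -0.19 to 1.31, edgeR adjusted p = 0.544), and 0.28 (adjusted p = 0.590) without replicate 3. None of the 3 differences of this effect between compartments passed the edgeR test, with -0.57 for spleen minus PC (adjusted p = 0.308), -0.59 for spleen minus culture (adjusted p = 0.413) and -0.01 for PC minus culture.

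Because both receptors bind BAFF, their ratio was computed within each library from CPM per kb. The log2 ratio of Tnfrsf13c to Tnfrsf13b was 1.00 ± 0.41 in the NFKBIE-wt and 2.03 ± 0.27 in the NFKBIE-ko spleen, 1.92 ± 0.22 and 2.41 ± 0.11 in the PC (SD, n = 4 each), and 1.33 ± 0.57 and 2.28 ± 0.22 in culture (SD, n = 3 each). Every NFKBIE-ko sample lay above every NFKBIE-wt sample of its compartment. The differences were 1.03 in the spleen and 0.49 in the PC (exact permutation test, two-sided, p = 0.0286 each, adjusted p = 0.0571 over the 12 ratios computed) and 0.95 in culture (exact permutation p = 0.100, adjusted p = 0.12). These p-values were the smallest that 4 against 4 and 3 against 3 samples allow, and none passed after adjustment. The difference was 1.15 in the spleen if NFKBIE-wt replicate 4 was left out and 0.62 in culture if NFKBIE-wt replicate 3 was, with a mean of 1.66 ± 0.12 in the 2 remaining NFKBIE-wt cultures (SD), an alternative chosen after seeing the data.

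**Figure D2:**
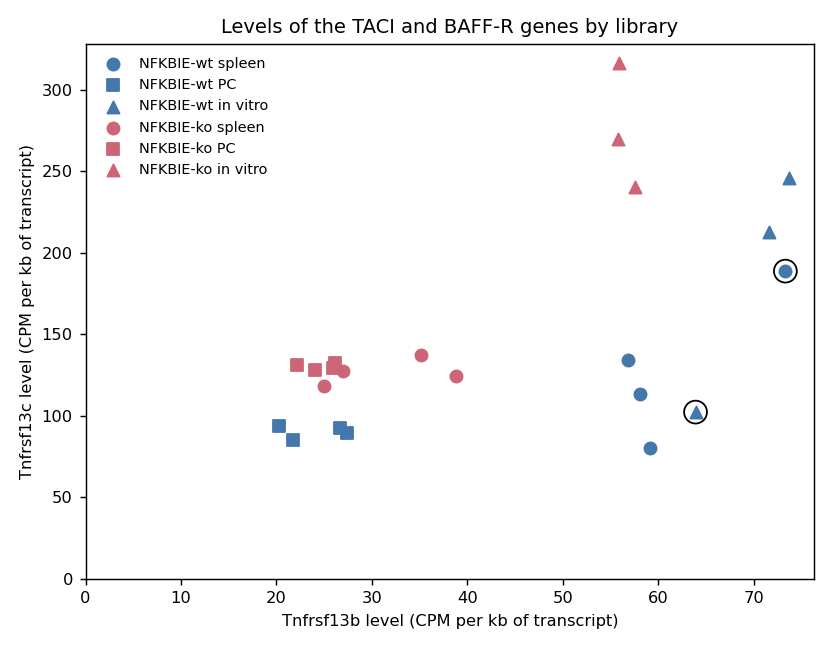
Tnfrsf13c (y axis) against Tnfrsf13b (x axis), both in CPM per kb of transcript, with 1 point per library, colored by genotype and with a symbol per compartment. The 2 circled libraries are NFKBIE-wt spleen replicate 4 and NFKBIE-wt in vitro replicate 3. NFKBIE-ko spleen samples lie to the left of the NFKBIE-wt spleen samples at a like height (means 31.5 and 61.8 CPM per kb of Tnfrsf13b), and NFKBIE-ko PC samples lie above the NFKBIE-wt PC samples (means 130.4 and 90.3 CPM per kb of Tnfrsf13c).

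Cd40 was higher in NFKBIE-ko cells in the spleen and in the PC. It encodes a receptor that delivers T-cell help to B cells. The NFKBIE-wt spleen samples were at 11.5, 10.4, 9.09 and 21.8 CPM and the NFKBIE-ko spleen samples at 29.5, 22.8, 45.9 and 38.2 CPM. The PC samples were at 13.4, 9.30, 9.29 and 14.0 CPM in NFKBIE-wt and at 21.1, 28.2, 23.5 and 23.9 CPM in NFKBIE-ko cells. In both compartments all 4 NFKBIE-ko samples lay above all NFKBIE-wt samples, and the means were 2.58 times and 2.10 times those in NFKBIE-wt. The log2 fold change was 1.36 in the spleen (SE 0.32, 95% interval 0.65 to 2.07, edgeR adjusted p = 0.0410) and 1.06 in the PC (SE 0.16, 95% interval 0.71 to 1.41, edgeR adjusted p = 0.000418).

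The adjusted p of Cd40 depended on single libraries in the spleen. The highest NFKBIE-wt spleen value was that of replicate 4, and without it the NFKBIE-wt mean was 10.3 ± 1.18 CPM (SD, n = 3) and the log2 fold change 1.72 (edgeR adjusted p = 0.00290). It also passed without NFKBIE-ko replicate 2 (1.51, edgeR adjusted p = 0.0340), but with any other of the 8 libraries left out it was 1.19 to 1.43 with adjusted p-values of 0.0851 to 0.121 (edgeR). In the PC, leaving out each library gave 0.96 to 1.17, and the adjusted p was at most 0.00174 (edgeR). The fold there was inside the threshold of 1, and the gene not called, without NFKBIE-wt replicate 2 (0.96) or 3 (0.96) or NFKBIE-ko replicate 2 (0.98). In culture Cd40 was at 18.8, 32.6 and 7.15 CPM in NFKBIE-wt, the lowest in replicate 3, and at 36.6, 33.4 and 36.0 CPM in NFKBIE-ko cells. The NFKBIE-ko cultures were all above the NFKBIE-wt cultures, with a log2 fold change of 0.86 (95% interval -0.32 to 2.04, edgeR adjusted p = 0.547), and of 0.46 (adjusted p = 0.592) without replicate 3. The effect on Cd40 was not shown to differ between compartments (0.30 for spleen minus PC, 0.51 for spleen minus culture and 0.21 for PC minus culture, edgeR adjusted p = 0.793, 0.700 and 0.895).

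Tnfsf13, the gene of APRIL, was measured above 1 CPM only in the PC. The NFKBIE-wt PC samples were at 7.48, 1.26, 2.59 and 3.11 CPM and the NFKBIE-ko PC samples at 8.42, 15.9, 8.15 and 13.7 CPM, without overlap. In the spleen the level was 0.00 to 0.45 CPM in NFKBIE-wt and 0.00 to 0.83 CPM in NFKBIE-ko samples. The cultures held 0, 0 and 24 counts in NFKBIE-wt, the 24 in replicate 3, and 3, 1 and 0 counts in NFKBIE-ko. In the PC the log2 fold change was 1.66 (SE 0.50, 95% interval 0.52 to 2.80, edgeR adjusted p = 0.0264), and the call was lost (adjusted p = 0.0599 to 0.0786, log2 fold change 1.37 to 2.30 over all libraries left out) without NFKBIE-wt replicate 3 or 4 or without NFKBIE-ko replicate 2 or 4. In spleen and culture the gene did not pass the filter on low counts and was not tested between genotypes.

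Only 1 of 3 annotated transcripts of Tnfsf13 was in the table, and the gene overlaps on the same strand the read-through gene Tnfsfm13, which joins Tnfsf12 and Tnfsf13, so that the split of reads among these genes is uncertain. Tnfsfm13 had 3.24 CPM in the NFKBIE-wt and 9.44 CPM in the NFKBIE-ko PC. Tnfsf12, which encodes the related ligand TWEAK, was at 3.38 ± 1.57 and 8.39 ± 0.805 CPM there (SD, n = 4 each; log2 fold change 1.296, SE 0.33, edgeR adjusted p = 0.0100).

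The summed level of 8 myeloid markers moved with Tnfsf13. It was 549 to 1698 CPM in the NFKBIE-wt PC and 3762 to 5569 CPM in the NFKBIE-ko PC, compared with 24.9 to 346 CPM in the spleen and 32.4 to 79.2 CPM in culture, and in each group all 8 markers were above 0 except C1qa and C1qc in the NFKBIE-ko cultures. The summed granulocyte markers had a mean of 278 CPM in the NFKBIE-wt and 37.0 CPM in the NFKBIE-ko PC, and the dendritic-cell markers of 29.9 and 53.0 CPM. The part of these cells in the level of Tnfsf13 was not tested. In such bulk samples, fewer cells of a type and less RNA per cell cannot be told apart.

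**Figure D3:**
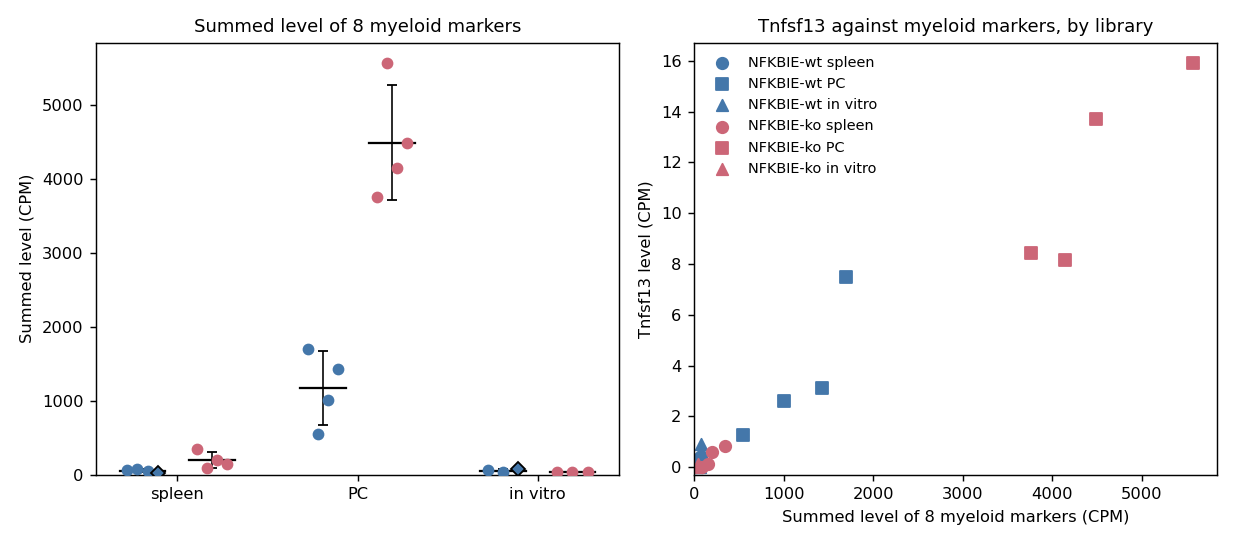
Left, summed CPM of 8 myeloid markers (y axis, linear) by compartment and genotype (blue NFKBIE-wt, red NFKBIE-ko), with 1 point per library, the mean as a line, the SD as a bar, and diamonds for the 2 libraries that stood apart. Right, Tnfsf13 in CPM (y axis) against the same sum (x axis, linear) in the 22 libraries: the 4 NFKBIE-ko PC libraries, at 8.15 to 15.9 CPM of Tnfsf13, have the 4 highest myeloid sums.

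Tnfsf13b, the gene of BAFF, was near the limit of detection in all groups. It held at most 23 counts in a library, and its mean ranged from 0.124 CPM in the NFKBIE-ko PC to 0.497 CPM in the NFKBIE-wt spleen. The gene had 4 of 8 annotated transcripts in the table, did not pass the filter in any comparison of genotypes, and a difference was not detectable at this depth. Its most abundant transcript, Tnfsf13b-205 (54.4% of its counts), is annotated as a target of nonsense-mediated decay.

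Of the 5 members, 3 were tested between genotypes in the spleen, and 2 of them were called (Tnfrsf13b lower, Cd40 higher), when 2.99% of all genes tested were called (365 of 12221) and 5.43% had an adjusted p below 0.05. This background itself moved with single libraries, from 50 genes higher and 66 lower without NFKBIE-ko replicate 1 to 378 higher and 415 lower without NFKBIE-wt replicate 4. The same 2 did not overlap between genotypes, as did 16.3% of all genes. In the PC 4 were tested, 3 had an adjusted p below 0.05 when 43.4% of all genes did, and 2 were called (Cd40 and Tnfsf13, both higher) when 13.5% were (1702 of 12642). There 3 of the 4 did not overlap, against a background of 41.6%. In culture 3 were tested and 0 were called by edgeR or by DESeq2, with 1 at an unadjusted p below 0.05 (edgeR). The share of all genes in culture was 0.0341% (4 of 11722), both with and without the fold threshold. Without NFKBIE-wt in vitro replicate 2 it was 167 genes higher and 224 lower of 12053, without replicate 3 it was 7 and 2, and without NFKBIE-wt replicate 1 or any NFKBIE-ko replicate it was 0. In culture 2 of the 3 members did not overlap, as did 19.7% of all genes. With so few members these shares are a description.

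**Figure D4:**
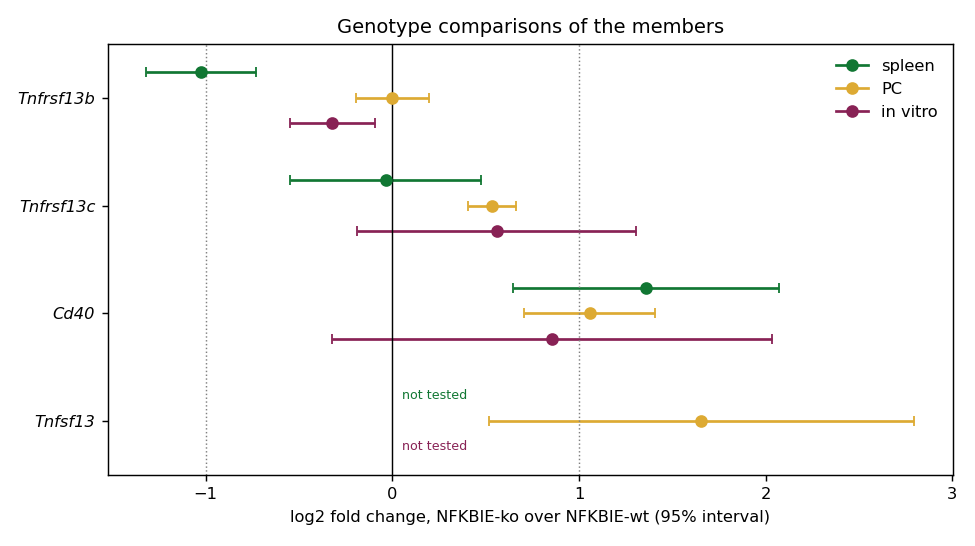
Log2 fold change of NFKBIE-ko over NFKBIE-wt for the 4 members tested in at least 1 compartment (points) with its 95% interval (bars) in the spleen, the PC and in vitro, from edgeR fits per compartment; dotted lines mark 1 and -1. Tnfrsf13b is at -1.02 in the spleen and close to 0 in the PC, Cd40 lies above 0 in all 3 compartments with an interval that includes 0 in vitro, and Tnfsf13 is marked as not tested in the spleen and in vitro.

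B-cell and other markers moved with genotype as well. The summed B-cell markers were lower in NFKBIE-ko samples, with means of 7145 against 9898 CPM in the spleen, 9181 against 11257 CPM in the PC and 7909 against 10506 CPM in culture, without overlap. Most of this sum was Ighm, at 5349 against 7771 CPM, 5670 against 8224 CPM and 5565 against 7941 CPM. The other 7 markers together, NFKBIE-ko before NFKBIE-wt, were at 1795 ± 221 and 2127 ± 169 CPM in the spleen and at 2344 ± 159 and 2564 ± 406 CPM in culture, both with overlap, and in the PC they were higher in NFKBIE-ko (3510 ± 81.0 against 3033 ± 89.6 CPM, SD), without overlap. In the spleen the markers of dendritic cells, which also carry CD40, were at 59.2 to 88.6 CPM in NFKBIE-ko and 23.9 to 42.8 CPM in NFKBIE-wt samples, and the myeloid markers had means of 197 and 56.7 CPM, also without overlap. In culture the dendritic-cell markers were at 70.6 to 112 CPM in NFKBIE-ko and 27.004 to 91.6 CPM in NFKBIE-wt cells, with Clec9a at 0 in NFKBIE-ko. Their mean in NFKBIE-ko was higher in culture (93.8 CPM) than in the spleen (73.2 CPM). This sum can therefore not be read as an amount of dendritic cells. T-cell markers overlapped between genotypes in all 3 compartments, with means of 133 CPM in the NFKBIE-ko and 87.4 CPM in the NFKBIE-wt spleen. In the same order the means were 273 and 222 CPM in the PC and 62.2 and 82.7 CPM in culture. The part of these cells in the levels of the receptors was not tested.

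Relative to the summed B-cell markers of the same library (without Ighm), the log2 level of Tnfrsf13b differed by -0.77 between NFKBIE-ko and NFKBIE-wt spleen and by -0.19 in the PC and in culture. The corresponding differences were 0.29, 0.34 and 0.76 for Tnfrsf13c and 1.66, 0.88 and 1.23 for Cd40. For Tnfrsf13b in the spleen, Tnfrsf13c in the PC and Cd40 in both, the exact permutation p was 0.0286 (adjusted p = 0.0571 over the 12 ratios), the smallest possible, and in culture it was at least 0.100. Without NFKBIE-wt spleen replicate 4 the differences in the spleen were -0.72 for Tnfrsf13b, 0.48 for Tnfrsf13c and 1.91 for Cd40. Without NFKBIE-wt in vitro replicate 3 those in culture were -0.21, 0.43 and 0.68.

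The compartments were then compared within a genotype. In the unpurified NFKBIE-wt samples Tnfrsf13b was lower in the PC (52.5 ± 6.43 CPM) than in the spleen (132 ± 14.8 CPM, SD, n = 4 each), with a log2 fold change of -1.33 (SE 0.11, edgeR adjusted p = 8.89e-08), and of -1.27 without spleen replicate 4. Tnfsf13 was higher in the PC (3.95, SE 1.07, edgeR adjusted p = 0.00742; 3.54, adjusted p = 0.0152, without spleen replicate 4). These 2 members were called when 12.8% of all genes were. Tnfsf13 passed the low-count filter of this fit through its level in the PC, so that its differences between the PC and the other compartments, in both genotypes, are given as a description and nothing is read from counts that hold it. In NFKBIE-wt cells Tnfrsf13c (-0.51, edgeR adjusted p = 0.0740) and Cd40 (-0.20, adjusted p = 0.690) did not pass. Their means were 171 and 11.5 CPM in the PC and 244 and 13.2 CPM in the spleen. Without spleen replicate 4 the spleen means were 207 and 10.3 CPM, so that the mean of Cd40 was then higher in the PC.

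In the unpurified NFKBIE-ko samples Tnfsf13 alone of the members was called between PC and spleen, with 22, 0, 15 and 4 counts in the spleen samples (4.84, SE 1.06, edgeR adjusted p = 0.000855), when 20.2% of all genes were. Tnfrsf13b passed the test at a small size (-0.30, SE 0.10, edgeR adjusted p = 0.0200), as did 51.1% of all genes, but not under DESeq2 (adjusted p = 0.0519) and not without 5 of the 8 libraries in turn. Cd40 (-0.50, edgeR adjusted p = 0.228) and Tnfrsf13c (0.06, adjusted p = 0.834) did not pass.

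Within each genotype the cultures held the highest mean level of all 3 receptors. Between PC and culture 3 members were called in NFKBIE-wt, when 13% of all genes were, and 3 in NFKBIE-ko, when 20.8% were. Tnfrsf13b was lower in the PC than in culture by a log2 fold change of -1.47 in NFKBIE-wt (SE 0.11, edgeR adjusted p = 1.26e-07) and -1.14 in NFKBIE-ko (SE 0.11, edgeR adjusted p = 2.51e-07). Tnfrsf13c was at -1.04 (edgeR adjusted p = 0.00238) and -1.05 (edgeR adjusted p = 0.00106), and in NFKBIE-wt without culture replicate 3 at -1.33 (edgeR adjusted p = 5.85e-05). Tnfsf13 was the called member that was higher in the PC, with 3.55 in NFKBIE-wt (edgeR adjusted p = 0.0241), where the culture level rests on replicate 3 and the call was lost without PC replicate 1 or culture replicate 1 or 2 (adjusted p at most 0.0773). In NFKBIE-ko its mean was 11.6 CPM in the PC and 0.0504 CPM in culture (edgeR adjusted p = 0.000345). Cd40 did not pass in either genotype (-0.76 and -0.55, edgeR adjusted p = 0.112 and 0.219), and in NFKBIE-wt without culture replicate 3 it did (-1.16, edgeR adjusted p = 0.00603).

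Between spleen and culture, the outcome in NFKBIE-wt cells depended on the 2 libraries that stood apart. With all libraries 0 of 5 members and 0% of all genes were called by edgeR, with 1 member (Tnfrsf13c) and 1059 genes at an unadjusted p below 0.05, and DESeq2 called 0 members and 20 genes. Tnfrsf13c was at -0.53 (edgeR adjusted p = 0.617) and Cd40 at -0.56 (edgeR adjusted p = 0.719). Without both libraries 2 members were called, both lower in the spleen, with -1.03 for Tnfrsf13c (edgeR adjusted p = 7.68e-05; means 207 and 430.4 CPM) and -1.29 for Cd40 (edgeR adjusted p = 0.00156; means 10.3 and 25.7 CPM). Tnfrsf13b did not pass either way (-0.13, edgeR adjusted p = 0.772, and -0.23, adjusted p = 0.179).

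In NFKBIE-ko cells Tnfrsf13c was called between spleen and culture (-1.12, edgeR adjusted p = 0.00242), when 13.5% of all genes were. Tnfrsf13b was also lower in the spleen (-0.83, edgeR adjusted p = 0.000140), below the fold threshold, as 30.3% of all genes passed the test, and Cd40 was not (-0.05, adjusted p = 0.930). For the effect of genotype, 0 members were called between spleen and culture or between PC and culture by edgeR or DESeq2, when 0.355% and 3.15% of all genes were. At an unadjusted p below 0.05 (edgeR) there was 1 member for each, Tnfrsf13b and Tnfsf13. The comparisons of compartments share samples with each other.

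Ordered by mean CPM, Tnfrsf13b was highest in the NFKBIE-wt cultures, then the NFKBIE-wt spleen, NFKBIE-ko cultures, NFKBIE-ko spleen, NFKBIE-ko PC and NFKBIE-wt PC. Only the steps on either side of the NFKBIE-ko spleen were free of overlap. Tnfrsf13c ran from the NFKBIE-ko cultures over the NFKBIE-wt cultures, NFKBIE-ko PC, NFKBIE-wt spleen and NFKBIE-ko spleen to the NFKBIE-wt PC, which alone was separate from its neighbour. Without replicate 4 the NFKBIE-wt spleen mean (207 CPM) was below that of the NFKBIE-ko spleen (239 CPM). Cd40 had a higher mean in each NFKBIE-ko group (cultures, spleen, PC, in this order) than in any NFKBIE-wt group (in the same order), but all neighbours overlapped, and without replicate 3 the NFKBIE-wt culture mean (25.7 CPM) was above that of the NFKBIE-ko PC (24.2 CPM). For Tnfsf13 the NFKBIE-ko PC, the NFKBIE-wt PC and the remaining groups were separate from each other.

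The members had 22 transcripts in the table, and the shares of the main transcripts of Tnfrsf13b, Tnfrsf13c and Cd40 were close between groups. Those of Tnfsf13b were not read at its low counts. Tnfrsf13b-201 held 90.1% of the gene's counts (group means 88.7% to 90.9%), and Tnfrsf13c-201 held 79.4% with Tnfrsf13c-202 at 14.3%. In the spleen Tnfrsf13b-201 changed as its gene did (-0.999, edgeR adjusted p = 0.0289 over all transcripts tested), and in the PC Tnfrsf13c-201 did (0.62, edgeR adjusted p = 0.000466).

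Cd40 was divided among Cd40-202 (40.6%), Cd40-201 (32.4%), Cd40-207 (13.6%, annotated as a target of nonsense-mediated decay) and Cd40-203 (12.8%). Coding exons 6 and 7 of Cd40-201 are shown because they tell Cd40-201, Cd40-202 and Cd40-203 apart. Exon 6 has 62 bases, not a multiple of 3, and is absent from Cd40-203. Exon 7 has 87 bases, a multiple of 3, and is absent from Cd40-202, and it holds the code of the stretch that anchors CD40 in the membrane.
Cd40 exon 6, chr2:164908423-164908484, plus strand: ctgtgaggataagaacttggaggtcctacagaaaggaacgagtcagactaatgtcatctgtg
Cd40 exon 7, chr2:164911549-164911635, plus strand: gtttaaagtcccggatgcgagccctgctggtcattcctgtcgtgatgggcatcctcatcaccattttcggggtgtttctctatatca

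Both major forms of Cd40 rose in the NFKBIE-ko PC, Cd40-201 with exon 7 by a log2 fold change of 1.24 (edgeR adjusted p = 0.0123) and Cd40-202 without it by 1.13 (edgeR adjusted p = 0.0261). Cd40-203 was at 1.03 (edgeR adjusted p = 0.109) and Cd40-207 at 0.77 (adjusted p = 0.199). In the spleen the 4 transcripts were at 1.32 to 1.77, and none passed the edgeR test after adjustment over all transcripts. The share of Cd40-202 was 39.8% to 44.3% over the groups, so that the higher level of the gene in the PC was not confined to a form with or without the membrane exon. Reads shared by these forms are divided by estimation.

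**Figure D5:**
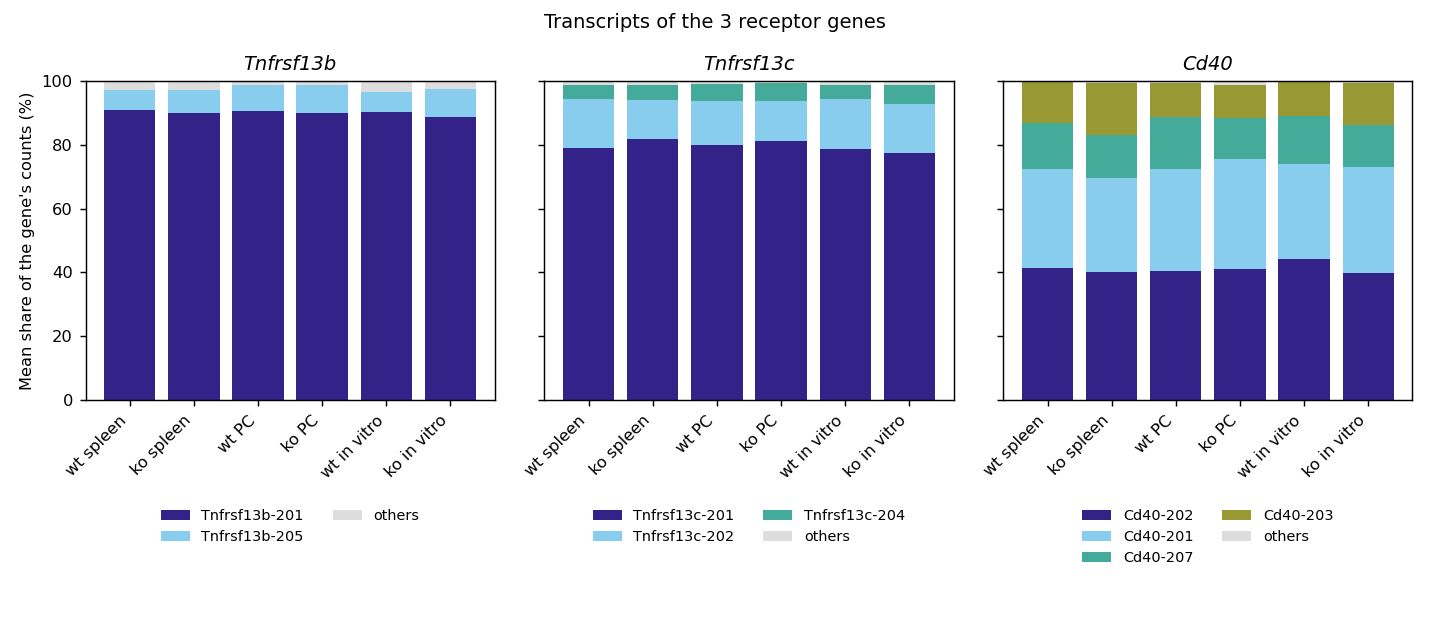
Mean share (%) of each gene's estimated counts held by its transcripts (stacked bars from 0 to 100) in the 6 groups, for Tnfrsf13b, Tnfrsf13c and Cd40. The bars of a gene look alike in all groups, with Tnfrsf13b-201 at 88.7% to 90.9% and Cd40-202 at 39.8% to 44.3%.

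Other genes of the pathway, a list of 40 of which 39 were in the table, were followed through their roles. In the spleen 7 of 35 tested had an adjusted p below 0.05, 4 higher and 3 lower in NFKBIE-ko, when 5.43% of all genes did, and 4 were called, when 2.99% were. The median log2 fold change of the list was 0.093, against -0.0075 for all genes. Traf5, an adaptor of these receptors, was higher (1.07, edgeR adjusted p = 0.00218), as were the NF-κB targets Icosl (1.36, adjusted p = 0.00513), Icam1 (1.43, adjusted p = 0.0337) and Cd86 (0.91, adjusted p = 0.0264). Lower were Furin, a protease that processes APRIL and BAFF (-0.97, edgeR adjusted p = 0.00420), Sdc1, a heparan sulfate proteoglycan that binds APRIL and marks plasma cells (-2.29, edgeR adjusted p = 0.00451), and the survival gene Bcl2 (-0.70, edgeR adjusted p = 0.0391). The summed plasma-cell markers, a list that holds Sdc1 itself, overlapped there (974 to 1676 CPM in NFKBIE-wt and 977 to 1196 CPM in NFKBIE-ko).

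In the PC 21 of 36 pathway genes had an adjusted p below 0.05, 14 higher and 7 lower, when 43.4% of all genes did, and 7 were called, when 13.5% were, with a median of 0.050 against -0.0079 for all genes. The 10 with the smallest adjusted p are named. Among the adaptors Traf1 (0.80, edgeR adjusted p = 8.37e-05) and Traf5 (0.83, adjusted p = 7.10e-05) were higher. Map3k14, which encodes NIK, was lower (-0.85, edgeR adjusted p = 6.58e-06), while the NF-κB subunit Nfkb2, which NIK acts on, was higher (0.87, adjusted p = 3.38e-05). The survival gene Bcl2l1 (1.05, edgeR adjusted p = 0.000162) and Adam17, a protease that sheds TNF family proteins (0.47, adjusted p = 0.000509), were higher. The targets moved both ways, with Icosl (1.43, edgeR adjusted p = 2.01e-05), Icam1 (0.78, adjusted p = 5.16e-05) and Cd86 (1.05, adjusted p = 7.94e-05) higher and Cr2, the complement receptor CD21, lower (-3.35, edgeR adjusted p = 7.28e-07).

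In culture 1 of 35 pathway genes passed the edgeR test, Icosl (1.76, SE 0.10, adjusted p = 0.0167), when 0.0341% of all genes did, and the median was 0.051 against -0.021 for all genes. Icosl, the ligand of ICOS on T cells, was the gene of this list that passed in all 3 compartments, but its call in culture was lost with the replicate block and without NFKBIE-wt replicate 1 or any of the 3 NFKBIE-ko replicates. As for Tnfrsf13b, the effect on Furin was more negative in the spleen than in the PC (-0.84, edgeR adjusted p = 0.00135), and it was also more negative than in culture (-0.69, edgeR adjusted p = 0.0408). That on Map3k14 was more positive in the spleen than in the PC (0.66, edgeR adjusted p = 0.0434), and no other gene of the list passed for spleen minus PC (2 of 37). Traf5 was more positive in the spleen and in the PC than in culture (0.93 and 0.70, edgeR adjusted p = 0.0287 and 0.0295).

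The genes whose levels followed the members most closely over the 22 samples were named by the root mean square difference of their centered log2 CPM among 12629 protein-coding genes. They were Gpr155 (0.213), Tle4 (0.300) and Cenpm (0.303) for Tnfrsf13b, Aldh7a1 (0.169), Aebp2 (0.211) and Eml4 (0.213) for Tnfrsf13c, and Icam1 (0.246), Nfkb2 (0.338) and Pcbd1 (0.343) for Cd40. For Tnfsf13 they were Scamp5 (0.680), Mitf (0.693) and Hacd4 (0.745). The spread of Tnfsf13 itself on this scale was 2.63, against 0.629 for Tnfrsf13b, 0.553 for Tnfrsf13c and 0.783 for Cd40. Its differences can therefore not be set directly against those of the receptors. Tnfsf13b was too close to 0 for such a comparison to be read.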

How the data were processed

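The authors estimated transcript counts with SALMON 1.8 on GRCm39 and deposited them unnormalized (expected counts, 69.5% of values not whole) for 22 samples and 62492 transcripts, each above 0 in at least 5 samples. CASAVA and DESeq2 are also named in the submitters' processing notes. The sources differ on read length. Counts were rounded and summed per gene with GENCODE (62147 transcripts matched, 17023 genes, 0.619% of counts unmatched).

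Groups came from the sample titles, since the descriptions of NFKBIE-ko samples begin by naming NFKBIE-wt cells and the tissue label says blood. Genotypes were compared per compartment, and compartments and differences of effects in a fit of all 22 samples, with edgeR 4.0.16 in R 4.3.3 (filterByExpr, TMM, robust quasi-likelihood F test, Benjamini-Hochberg adjustment over all genes tested); 95% intervals used the t quantile. Genes were called at 0.05 for the adjusted p and 1 for the absolute log2 fold change. P-values measure the spread between these samples. No pair of replicates agreed within sampling noise (chi-square per degree of freedom from 6.85 upward).

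Named genes were the members with transcripts of at least 5% of the gene's counts, Nfkbie, the pathway genes that passed the test between genotypes (at most 10 per comparison, by adjusted p), and the 3 genes most like each member. Tnfrsf17, Tnfsf12, Tnfsfm13, and the 3 pathway genes named for differences between compartments were chosen after their values were seen. Members and lists were chosen with earlier results of these data known. Exact permutation tests used scipy 1.17.1 in Python 3.11.15, and figures matplotlib 3.10.9. In simulated data, 200 genes carried a log2 change of 2. Of these, edgeR recovered 200 in the spleen design (10 false calls among 12294 genes) and 200 in the PC design (13 among 12668). It recovered 199 in the in vitro design (12 among 12031) and 191 for the difference between spleen and PC (10 among 13123). DESeq2 recovered 200, 200 and 199 in the spleen, PC and in vitro designs, with 27, 20 and 23 false calls. Recovery of log2 changes smaller than 2 was not tested. Alternatives were DESeq2 1.42.0, other size factors, no filter, other fits, the transcript with the highest count, no fold threshold, a replicate block and libraries left out. Protein sequences were not used here.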

Additional observations from a re-analysis of the deposited data

Results flagged for a closer look

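The effect of genotype on Tnfrsf13b differed between compartments, with a log2 fold change in the spleen that was lower by -1.03 than that in the PC in the edgeR fit of all 22 samples (adjusted p = 0.00103). All 4 NFKBIE-ko spleen samples lay below the NFKBIE-wt spleen samples, whereas the PC samples of both genotypes overlapped, with means (52.5 CPM in NFKBIE-wt and 52.9 CPM in NFKBIE-ko) under that of the NFKBIE-ko spleen (65.3 CPM). The highest NFKBIE-wt PC sample, at 59.1 CPM, exceeded 2 of the 4 NFKBIE-ko spleen samples. No library of the 20 groups of 4 examined (5 members in 4 groups) lay apart from the others by Dixon's criterion. With 4 values this criterion finds only an extreme library, and the cultures were not examined.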

How the results depend on the processing

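Of 793 alternative log2 fold changes of the members (55 results), 715 kept direction and side of the threshold, 31 lost and 12 gained significance, and 35 changed sign; of 224 alternative counts of called genes (15 results), 192 stayed within 1.5 times. The cause of these changes was not tested, apart from the smaller number of samples where libraries were left out. The 2 members called in the spleen became 1 with the replicate block and 0 to 2 with libraries left out, and the 2 in the PC became 1 with the block, 1 with all 22 samples in the fit and 0 to 2. Without a fold threshold 3 rather than 2 members counted in the PC. The pathway genes called became 7 in the spleen (from 4) and 21 in the PC (from 7) without a fold threshold, and 3 to 8 in the spleen with libraries left out; in vitro the 1 became 0 with the block and 0 to 1. For PC against spleen, the 2 members in NFKBIE-wt became 1 with the block, and the 1 in NFKBIE-ko became 2 without a fold threshold, as did the 1 of spleen against culture. In NFKBIE-wt, spleen against culture went from 0 to 0 to 2 members (2 with both libraries left out), and PC against culture from 3 to 0 with the block and 1 to 4. The difference of effects between spleen and PC went from 1 to 0 to 1.

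The replicate numbers did not reveal a pairing of the samples (correlation of deviations from -0.264 to 0.138 in the spleen, -0.126 to -0.0047 in the PC and -0.0089 to 0.0936 in vitro between genotypes, and -0.154 to 0.106 for PC against spleen, -0.338 to 0.391 for spleen against culture and -0.0446 to 0.122 for PC against culture). These correlations cannot show that spleen and PC samples come from different mice. The replicate block gave a log2 fold change of -1.03 for Tnfrsf13b in the spleen (adjusted p = 0.0385), 1.40 for Cd40 (adjusted p = 0.0958) and 1.83 for Tnfsf13 in the PC (adjusted p = 0.0643, edgeR).

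Sign changes, in values that did not pass the test, were as follows. Tnfrsf13c in the spleen was 0.032 with the block, 0.072 for its highest transcript and -0.20 to 0.21 with libraries left out. Tnfrsf13b in the PC was 0.0031 with other size factors, 0.0043 with DESeq2, 0.0071 with the block, 0.012 with all 22 samples, 0.044 for its highest transcript and -0.077 to 0.068. Tnfrsf13c for PC minus culture was 0.012 with other size factors, 0.011 with DESeq2 and -0.25 to 0.28. With libraries left out, Cd40 was -0.34 to 0.15 for PC against spleen and -1.29 to 0.025 for spleen against culture in NFKBIE-wt, -0.24 to 0.099 for spleen against culture in NFKBIE-ko, -0.077 to 1.27 for the effect in spleen minus culture and -0.37 to 0.61 in PC minus culture. Tnfsf13 was -0.98 to 5.97 for spleen against culture in NFKBIE-wt, -3.11 to 4.42 for spleen minus culture and -1.84 to 5.31 for PC minus culture. Tnfsf13b was -0.57 to 0.12 for PC against spleen in NFKBIE-wt, -0.83 to 0.19 for spleen against culture in NFKBIE-ko and -0.21 to 0.86 for spleen minus PC.

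Over all genes, the calls in the spleen (171 higher, 194 lower) were 378 and 343 with DESeq2, 333 and 328 with all 22 samples and 46 and 43 with the block, and those in vitro (4 higher, 0 lower) were 67 and 86, 58 and 131, and 0. In NFKBIE-wt, DESeq2 called 1 higher and 19 lower for spleen against culture (0 with edgeR), and the block 761 and 310 for PC against spleen and 15 and 0 for PC against culture, which was 698 and 422 with only these groups in the fit. Differences of effects called by DESeq2 were 103 and 357 for spleen minus PC (257 in all with edgeR), 525 and 81 for spleen minus culture (48) and 919 and 61 for PC minus culture (426), which was 73 and 14 with the block. Spleen minus culture was 14 and 7 with no filter, 1 and 0 with only these groups and 0 with the block. With libraries left out, the spleen had 50 and 66 (without NFKBIE-ko replicate 1) to 378 and 415 (without NFKBIE-wt replicate 4), and in vitro 0 to 167 and 224 (without NFKBIE-wt replicate 2). Spleen minus PC had 29 and 120 (without NFKBIE-wt PC replicate 2) to 68 and 275 (without NFKBIE-ko spleen replicate 2), spleen minus culture 1 and 3 (without NFKBIE-ko spleen replicate 3 or NFKBIE-ko culture replicate 2 or 3) to 473 and 108 and PC minus culture 35 and 3 (without NFKBIE-ko culture replicate 1) to 812 and 58, both highest without NFKBIE-wt culture replicate 2. Without both libraries that stood apart, spleen against culture had 1019 and 721 in NFKBIE-wt. The 8 ratios of spleen and culture kept their sign without these libraries. Low counts limited the ligands, which were mostly untested between genotypes.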
